A study of Mus musculus with 2 samples.

Results

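The 9 complement genes C1qa, C1qb, C1qc, C3, C4b, Cfb, Cfp, C3ar1 and C5ar1 were followed through single-cell RNA-seq of sorted mouse colon cells. They were taken by symbol from the 31053 genes counted in both libraries, and all 9 were present. The cells came from bone marrow chimeras, in which CD45.1 recipient mice carried CD45.2 donor marrow lacking the IL-10 receptor. In 1 library the donor was IL-10R KO, and in the other it was IL-10R/CerS2 DKO, so both genotypes lacked the IL-10 receptor and the DKO also lacked ceramide synthase 2, an enzyme that makes very-long-chain ceramides. Per the study's methods, cells had been sorted on CD45, CD11b, CD11c and CD64. The KO library held 2584 cell barcodes and the DKO library 742, and 1 barcode sequence occurred in both. With 1 library per genotype, genotype, mouse, sort and library cannot be told apart, no test of DKO against KO was possible, and every 95% interval given here covers counting error only. The deletion is carried by all cells of the donor marrow, while the recipient's own cells, such as stroma and epithelium, keep both genes. The age of the mice and how many were pooled are not given in the sources used here.

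Complement is a set of plasma and tissue proteins that tags microbes and dying cells for uptake. C1q recognises bound antibody and dying cells and starts the classical pathway, C3 is the protein on which all pathways meet, and factor B and properdin drive the alternative pathway that amplifies C3 cleavage. The small fragments C3a and C5a signal through receptors on myeloid cells. Much of the plasma complement is made in the liver, but C1q is made largely by macrophages and properdin by leukocytes.

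After filtering, 2443 KO and 730 DKO cells remained, with medians of 4715 and 3722 unique molecular identifiers (UMIs, each a counted RNA molecule) per cell. Cers2 had 552 UMIs in the KO library and 2 in the DKO library, which is as the labels say. Il10rb, the receptor chain deleted in these donors, had 74 and 14 UMIs, and whether its 3′ tag lies in the deleted part is not given in the sources used here. Cells were grouped by clustering without the complement genes and named from marker genes. Monocyte/macrophage-like cells numbered 1621 in KO and 342 in DKO, 66.4% and 46.8% of the cells, while the labels call all cells macrophages. B cell-like cells numbered 230 and 166, neutrophil-like cells 161 and 48, T cell-like cells 148 and 45 and dendritic cell-like cells 108 and 54, although the sort was meant to leave lymphocytes and neutrophils out. A cluster led by Klra7 and Xcl1 (141 and 67 cells) and a small cluster with T cell markers and epithelial leading genes (34 and 8 cells) stayed unnamed. Levels are given as counts per 1000000 UMIs of the class (CPM).

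Monocyte/macrophage-like cells had the highest level of 6 of the 9 genes in both libraries, namely C1qa, C1qb, C1qc, C4b, Cfb and C3ar1. Of the 11077 genes that reached 20 UMIs in the 2 libraries together, 9.26% had their highest level in that class in both libraries. C5ar1 was highest in neutrophil-like cells of both libraries. C3 and Cfp had no single leading class: C3 was highest in monocyte/macrophage-like cells of KO and in neutrophil-like cells of DKO, and Cfp stood at nearly the same level in monocyte/macrophage-like and dendritic cell-like cells. The DKO intervals of C3 in its leading classes overlap (90.7 to 278 CPM in neutrophil-like and 117 to 152 CPM in monocyte/macrophage-like cells). The lymphocyte classes were low in these genes. In B cell-like and T cell-like cells none of the 9 genes exceeded 18.2 CPM in KO or 6.49 CPM in DKO.

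**Figure D1:**
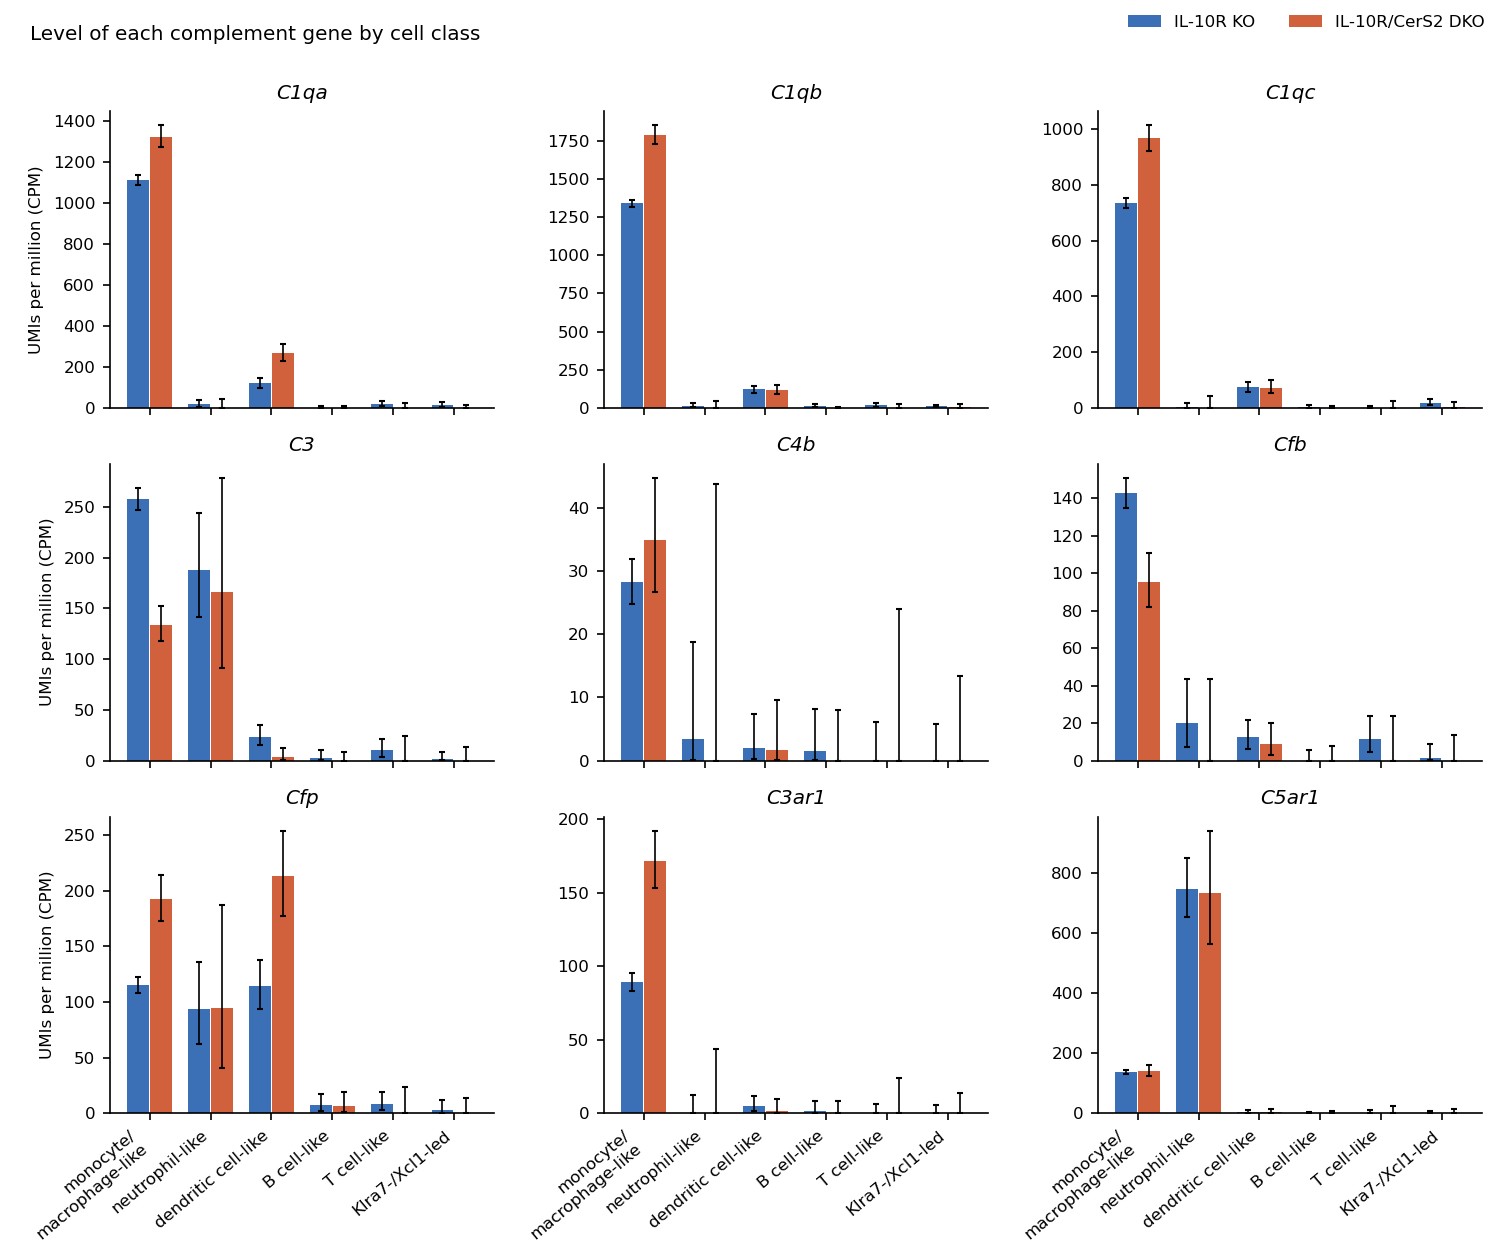
Level of each complement gene (vertical axis, CPM, from 0) in 6 cell classes of the IL-10R KO (blue) and IL-10R/CerS2 DKO (orange) libraries, with 95% Poisson intervals. The C1q genes, C4b, Cfb and C3ar1 peak in monocyte/macrophage-like cells, C5ar1 peaks in neutrophil-like cells at 747 and 735 CPM, and C3 and Cfp are shared between classes.

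Monocyte/macrophage-like cells split into 6 sub-clusters. Mature macrophage-like cells (634 in KO, 106 in DKO) carried Cx3cr1, Cd81 and Ms4a7. Classical monocyte-like cells (446 and 84) are the blood-derived cells that enter the colon, and nonclassical monocyte-like cells numbered 42 and 22. A sub-cluster led by Retnla, Mrc1 and Lpl (205 and 100 cells) stayed unnamed and is called the Retnla- and Mrc1-led sub-cluster. It made up 12.6% of the class in KO (interval 11.1 to 14.4%) and 29.2% in DKO (24.5 to 34.4%). All 8 resident macrophage markers were detected in it, summing to 1939 and 3328 CPM, against 161 and 291 CPM in mature macrophage-like cells. With complement genes kept in the clustering, a sub-cluster led by Retnla, C4b and Mrc1 (154 and 88 cells) was named resident macrophage-like. Inflammatory macrophage-like cells numbered 181 in KO and 1 in DKO, so no DKO value is given for them. The remaining 113 and 29 cells had medians of only 754 and 810 UMIs and are included in the class but not described apart.

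The 3 C1q genes encode the A, B and C chains of the C1q molecule and lie side by side on the minus strand of chromosome 4 in mm10 (GRCm38). C1qb spans chr4:136880129-136886187, C1qc chr4:136889804-136893065 and C1qa chr4:136895917-136898803, with gaps of 3616 and 2851 bases between neighbours. The 250 bases before the C1qb start, chr4:136886201-136886450 on the minus strand (RefSeq, GRCm38.p6), are shown because the C1q genes had the closest profiles of the set. Capitals mark matches to the Maf half-site letters TGCTGA and to the PU.1 core letters GAGGAA, 2 factors of macrophage identity.
C1qb: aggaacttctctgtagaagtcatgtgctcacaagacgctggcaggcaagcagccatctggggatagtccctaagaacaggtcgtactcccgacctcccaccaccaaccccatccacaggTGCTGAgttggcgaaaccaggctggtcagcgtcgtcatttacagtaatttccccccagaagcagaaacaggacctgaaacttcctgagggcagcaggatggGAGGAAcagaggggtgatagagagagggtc
Both strands were searched, and 16.1% of 32851 promoter windows of this length hold TGCTGA and 23.3% hold GAGGAA, so these matches are a description of the sequence and not of binding. Over 22 class and sub-cluster profiles, the correlation of log2(CPM + 1) was 0.96 between C1qa and C1qb, 0.95 between C1qa and C1qc and 0.96 between C1qb and C1qc. These profiles share libraries and are no independent samples. The gene outside the trio with the most similar profile was Gatm for C1qa (r = 0.95), Cebpa for C1qb (r = 0.92) and Ms4a7 for C1qc (r = 0.94).

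C1q transcripts lay almost entirely in monocyte/macrophage-like cells, and within them mostly in 2 sub-clusters. Monocyte/macrophage-like cells held 97.6% of C1qa UMIs in KO and 93.1% in DKO, 98% and 97.1% of C1qb UMIs, and 97.7% and 97% of C1qc UMIs. Summed over the 3 genes, the level was 5066 CPM in KO and 6372 CPM in DKO mature macrophage-like cells. It was 5005 and 5188 CPM in the Retnla- and Mrc1-led sub-cluster. Both macrophage groups were thus high in both libraries. Inflammatory macrophage-like cells of KO, at 710 CPM, were nearer in level to classical monocyte-like cells than to the mature cells. Classical monocyte-like cells reached 554 CPM for KO but 137 CPM for DKO, and nonclassical monocyte-like cells had 1 C1q UMI in KO and 0 in DKO. The floor of 3 counts in that DKO group is 40.6 CPM.

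The shares of the chains were close between the libraries over the whole class and differed between sub-clusters. C1qa, C1qb and C1qc gave 34.9%, 42% and 23.1% of C1q UMIs in KO monocyte/macrophage-like cells and 32.5%, 43.8% and 23.7% in DKO. These small gaps still exceed counting error for C1qa (34.4 to 35.5% in KO, 31.4 to 33.6% in DKO) and C1qb (41.4 to 42.6% and 42.7 to 45.0%). In classical monocyte-like cells of KO the C1qb share was 53.4% (interval 50.6 to 56.2%), above the 40.3% of mature macrophage-like cells. All 3 genes were found in 39.2% of KO and 42.7% of DKO monocyte/macrophage-like cells, while 44.6% and 46.5% had none. After thinning every cell to 1500 UMIs, a C1q UMI was found in 51.1% of KO and 55.5% of DKO cells of the class (1471 and 301 cells, medians of 5573 and 5491 UMIs before thinning). The same share was 2.36% and 0% in B cell-like cells (medians 2502 and 2555 UMIs) and 3.50% and 0% in T cell-like cells (medians 3680 and 2994.5 UMIs), types that do not make C1q. The 0 of 161 B cell-like DKO cells allows a share of up to 2.27% (upper bound of the exact interval).

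**Figure D2:**
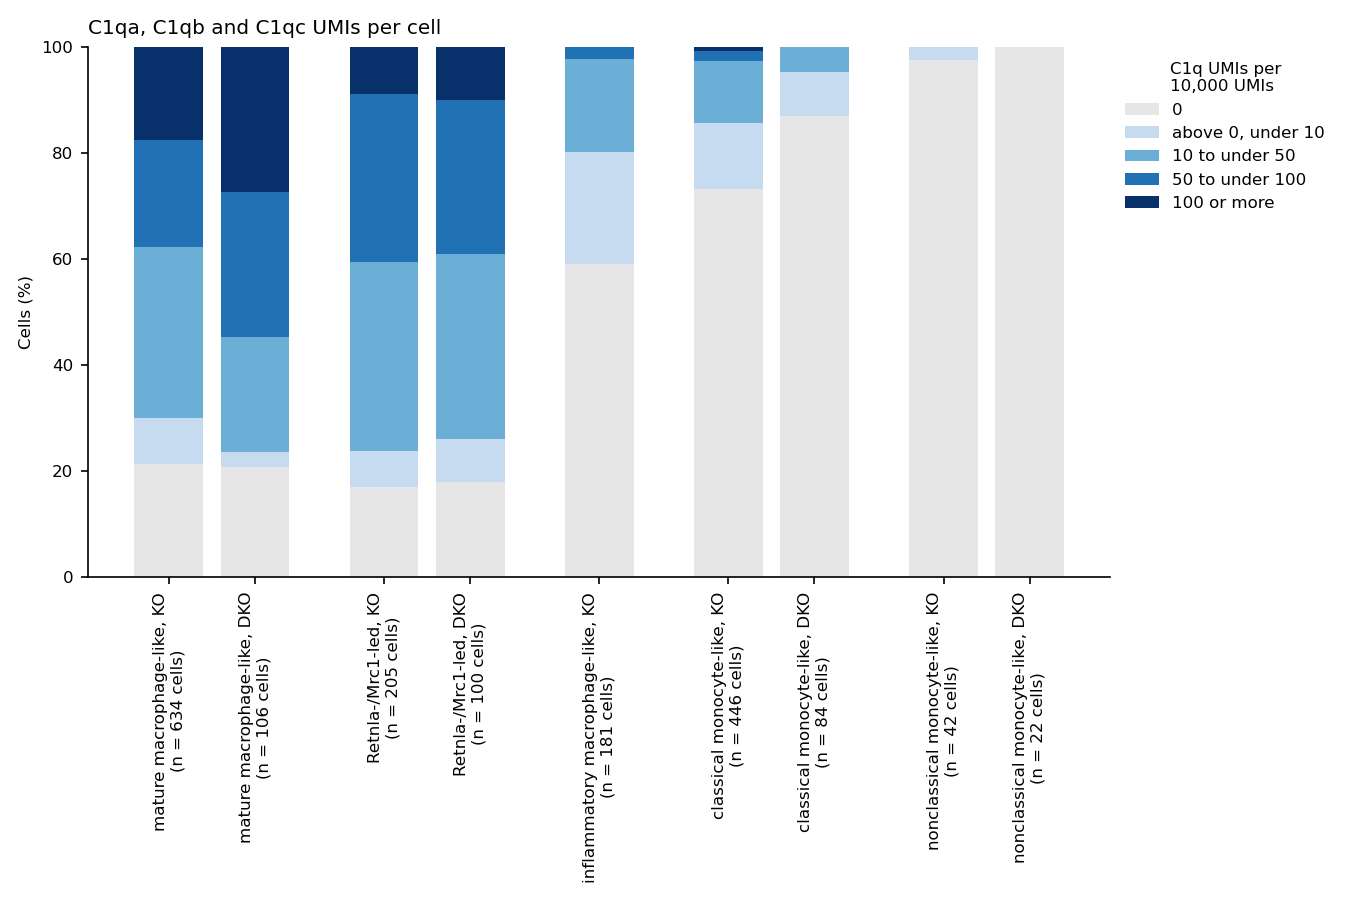
Share of cells (vertical axis, percent) by their summed C1qa, C1qb and C1qc UMIs per 10,000 UMIs, for each sub-cluster and library with at least 20 cells. Cells at 100 or more make up 17.5% of KO and 27.4% of DKO mature macrophage-like cells, and cells with no C1q UMI make up 73.3% and 86.9% of classical monocyte-like cells.

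In the whole class, C1q was modestly higher in DKO. C1qa was 1114 CPM for KO against 1326 for DKO (log2 ratio 0.25, interval 0.19 to 0.32). C1qb was 1340 and 1789 CPM (0.42, 0.36 to 0.47), and C1qc 735 and 967 CPM (0.40, 0.32 to 0.47). All 3 stayed under the 1.5-fold used as a call, a log2 ratio of 0.58, for genes with at least 20 UMIs. Without the inflammatory sub-cluster, which DKO nearly lacked, the class ratios fell to 0.08 for C1qa, 0.26 for C1qb and 0.23 for C1qc. Within mature macrophage-like cells the log2 ratios were 0.26, 0.34 and 0.44. There, 100 or more C1q UMIs per 10,000 were seen in 27.4% of cells for DKO (interval 19.1 to 36.9%) but 17.5% for KO (14.6 to 20.7%). In the Retnla- and Mrc1-led sub-cluster C1qa (-0.05) and C1qc (-0.02) had intervals that include 0, and C1qb stood at 0.15 (0.05 to 0.26).

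Classical monocyte-like cells went the other way. C1qa had 283 UMIs in KO and 12 in DKO there, 127 against 26.5 CPM and 4.61-fold lower in DKO. C1qb had 658 and 43 UMIs, 296 against 95.1 CPM and 3.08-fold lower. C1qc had 291 and 7 UMIs, 131 against 15.5 CPM and 7.90-fold lower. The log2 ratios were -2.21 (-3.23 to -1.43), -1.62 (-2.12 to -1.19) and -2.98 (-4.41 to -2.02). Few cells carried these UMIs: the tenth of cells with the most held 82.5% in KO and 95.2% in DKO, and at 1500 UMIs a cell any C1q UMI was seen in 19.0% of cells for KO (15.4 to 23.0%) but 10.0% for DKO (4.42 to 18.8%). Leaving out the top cell of each library gave log2 ratios of -3.18, -2.14 and -3.54. With the complement genes kept among the clustering genes the ratios were -1.84, -1.37 and -2.65 (445 and 90 cells). The 9 mature macrophage markers summed to 903 CPM in KO and 725 CPM in DKO classical monocyte-like cells, and the 7 classical monocyte markers to 6818 and 5212 CPM. Their part in the C1q difference was not tested.

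Dendritic cell-like cells were low in C1q, with 315 CPM for KO against 457 CPM for DKO, and in DKO most C1qa and C1qb UMIs lay in the highest cell for each gene. In DKO that cell held 83 of 155 C1qa UMIs and 53 of 67 C1qb UMIs. In KO the highest cell held 41 of 117 C1qa UMIs and 38 of 118 C1qb UMIs. C1qa was 2.23-fold higher in DKO there (log2 1.16, 0.80 to 1.52), and 0.68 on the log2 scale without the top cell of each library. The C1qb and C1qc ratios there went from -0.06 and -0.02 to -1.71 and -2.02 without those cells. All 12 monocyte/macrophage markers in KO and 11 of 12 in DKO were detected in dendritic cell-like cells, summing to 1767 and 8117 CPM with Cx3cr1 at 0 in DKO. The part of that difference in the C1qa ratio was not tested. In the small unnamed cluster with epithelial genes, the 257 KO C1q UMIs lay in 3 of 34 cells.

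C3, the central protein cleaved by every pathway, was lower in DKO monocyte/macrophage-like cells. It lies on the minus strand at chr17:57203970-57228136. The level in monocyte/macrophage-like cells was 257 CPM in KO (2255 UMIs) and 134 CPM in DKO (238 UMIs), 1.92-fold lower, with a log2 ratio of -0.94 (-1.14 to -0.75). C3 was the only gene of the set called lower, 1 of 9, where 8.87% of the 9768 genes tested in the class were. At 1500 UMIs a cell, C3 was found in 25.6% of cells for KO (23.4 to 27.9%) but 14.3% for DKO (10.5 to 18.8%), against 0.943% and 0% of B cell-like cells. Unthinned, the shares were 50.9% and 35.4%.

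C3 was lower in DKO in each of the 3 large sub-clusters. Mature macrophage-like cells had 290 CPM for KO against 189 for DKO (log2 -0.62, -0.89 to -0.37). In the Retnla- and Mrc1-led sub-cluster C3 was 189 and 74.2 CPM (-1.33, -1.91 to -0.82), the widest gap for C3 within the class. Classical monocyte-like cells had 170 and 113 CPM (-0.58, -1.04 to -0.17), just inside the 1.5-fold line. The highest KO level, 370 CPM (336 to 406), was in inflammatory macrophage-like cells, which were nearly absent from DKO. Without that sub-cluster the class ratio was -0.86. With the remaining sub-clusters weighted as in KO it was -0.68. Neutrophil-like cells had 188 CPM in KO and 166 in DKO from 56 and 14 UMIs (log2 -0.14, -1.14 to 0.69), so a change of the size seen in macrophages was not detectable at this depth. In dendritic cell-like cells C3 had 23 and 2 UMIs.

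The 250 bases before the C3 start, chr17:57228137-57228386 on the minus strand (RefSeq, GRCm38.p6), are shown because C3 was the gene called lower in the class. Capitals mark a match to TGCTGA on the other strand and a match to the C/EBP letters TTGCNNAA, a family of myeloid and acute-phase factors.
C3: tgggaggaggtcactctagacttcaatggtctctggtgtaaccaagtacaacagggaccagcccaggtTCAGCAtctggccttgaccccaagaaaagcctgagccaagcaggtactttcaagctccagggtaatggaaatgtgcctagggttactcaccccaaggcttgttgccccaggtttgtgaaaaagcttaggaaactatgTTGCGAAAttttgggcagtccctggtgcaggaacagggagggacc
TTGCNNAA occurs in 9.56% of the promoter windows. Genes with profiles closest to C3 were Tgfbi, Thbs1 and Fcgr3, each at r of 0.95 to 0.96 over the 22 profiles.

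C4b, a classical pathway component that is cut to help build the C3 convertase, lay largely in the Retnla- and Mrc1-led sub-cluster. C4b was not used for the clustering but is among the 10 leading genes of that sub-cluster, so its place there is a description. It lies at chr17:34728380-34743882 on the minus strand. That sub-cluster held 74.9% of the class's C4b UMIs in KO (185 of 247) and 85.5% in DKO (53 of 62). Its level was 209 CPM for KO against 109 for DKO there (log2 -0.93, -1.41 to -0.49), against 3.56 and 6.84 CPM in mature macrophage-like cells. A C4b UMI was found in 27.3% of KO and 22.0% of DKO cells of the sub-cluster, and in 11.9% and 12.9% after thinning. In KO 1 cell held 32 UMIs; without the top cell of each library the ratio was -0.85. In the whole class the levels were 28.2 and 34.8 CPM (log2 0.32, -0.12 to 0.71). With sub-clusters weighted as in KO they were 32.5 and 19.0 CPM (log2 -0.78). That weighting leaves the inflammatory sub-cluster out of both libraries. The whole-class and within-sub-cluster directions thus differ, with the high sub-cluster at 12.6% of KO and 29.2% of DKO cells of the class. C4a, a near copy of C4b, is not in the count table, so reads shared by both may be lost or assigned to C4b.

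Cfb encodes factor B, the protease of the alternative pathway convertase, and Cfp encodes properdin, which stabilises that convertase. Cfb lies at chr17:34856374-34862518 and Cfp at chrX:20925454-20931555, both on the minus strand. They went opposite ways. Cfb was 143 CPM in KO and 95.5 CPM in DKO monocyte/macrophage-like cells, 1.49-fold lower (log2 -0.58, -0.82 to -0.35), just inside the line. Cfp was 115 and 193 CPM, 1.67-fold higher (log2 0.74, 0.56 to 0.92).

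Cfb was highest in mature macrophage-like cells, at 194 CPM in KO and 144 in DKO (log2 -0.43, -0.74 to -0.14). Inflammatory macrophage-like cells of KO had 151 CPM. In the Retnla- and Mrc1-led sub-cluster it was 96.2 and 57.7 CPM (-0.72, -1.41 to -0.11). In classical monocyte-like cells it was 71.1 and 55.3 CPM, with an interval that includes 0 (-1.03 to 0.25). The ratio was thus below 0 in all 3 sub-clusters. Leaving out the top cell of each library gave a class ratio of -0.64, past the 1.5-fold line. Gm20547 overlaps most of Cfb on the same strand and had 0 UMIs, so reads in the overlap may be uncounted in both libraries. Genes closest to Cfb in profile were Cmklr1 (r = 0.93), Cxcl16 (r = 0.88) and Mmp14 (r = 0.87).

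Cfp was highest in the Retnla- and Mrc1-led sub-cluster, at 303 CPM in KO and 455 in DKO (log2 0.59, 0.32 to 0.85), just past the 1.5-fold line. In mature macrophage-like cells the levels were 90.8 and 108 CPM (0.26, -0.12 to 0.60), and in classical monocyte-like cells 74.7 and 84.0 CPM (0.19, -0.38 to 0.69). Those intervals include 0. The Retnla- and Mrc1-led cells held 26.5% of the class's Cfp UMIs in KO and 64.4% in DKO, and with sub-clusters weighted as in KO the class ratio was 0.36. Dendritic cell-like cells had 114 and 213 CPM (log2 0.90, 0.52 to 1.28), and Cfp was found in 48.1% and 61.1% of them, or 15.5% and 15.1% at 1500 UMIs. The monocyte/macrophage markers in these dendritic cell-like cells summed to 1767 and 8117 CPM, as given above, and their part in the Cfp difference was not tested. The thinned shares do not repeat the order of the levels, so no difference in the share of cells is read from them. In neutrophil-like cells Cfp was 93.8 and 94.8 CPM. Genes closest to Cfp in profile were Plbd1, App and Csf2rb, each at r = 0.90.

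**Figure D3:**
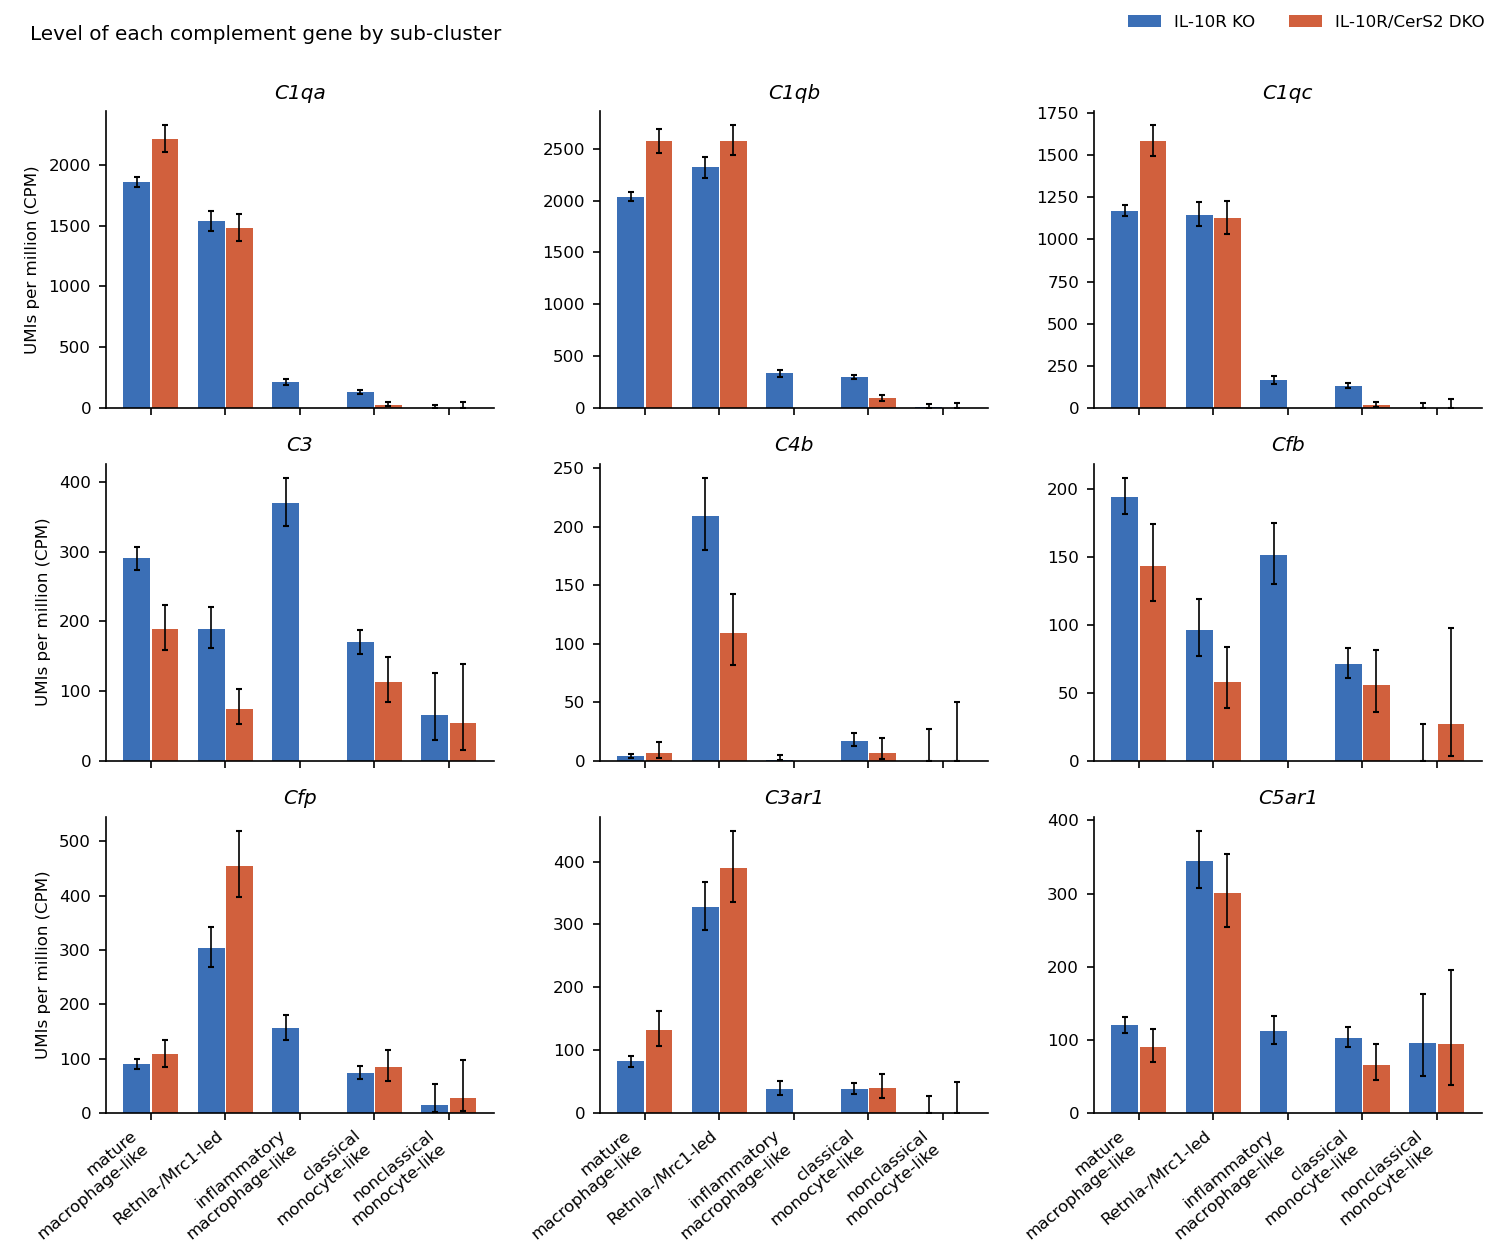
Level of each complement gene (vertical axis, CPM, from 0) in 5 sub-clusters of monocyte/macrophage-like cells, KO in blue and DKO in orange, with 95% Poisson intervals; inflammatory macrophage-like cells have no DKO bar because that library held 1 such cell. C4b, Cfp, C3ar1 and C5ar1 are highest in the Retnla- and Mrc1-led sub-cluster, Cfb in mature macrophage-like cells, and C3 in inflammatory macrophage-like cells of KO.

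The 2 anaphylatoxin receptors had their highest levels in different classes. C3ar1, the C3a receptor, lies at chr6:122847138-122856161, and C5ar1, the main C5a receptor, at chr7:16246743-16259540, both on the minus strand. C3ar1 lay in monocyte/macrophage-like cells, which held 98.9% of its UMIs in KO and 98.4% in DKO. Neutrophil-like cells had 0 C3ar1 UMIs in both libraries, where the floor of 3 counts is 10.1 and 35.6 CPM. Within the class, nonclassical monocyte-like cells also had 0 in both, with floors of 22.0 and 40.6 CPM. C5ar1 was 747 CPM (652 to 852) for KO neutrophil-like cells, against 735 CPM (563 to 942) for DKO ones, 5.46 and 5.23 times the level of monocyte/macrophage-like cells. By UMIs, however, monocyte/macrophage-like cells held most C5ar1 as well, 1199 of 1436 in KO and 250 of 316 in DKO. Neutrophil-like cells held 223 and 62.

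C3ar1 was 89.2 CPM in KO (782 UMIs) and 172 CPM in DKO (306 UMIs) monocyte/macrophage-like cells, 1.93-fold higher (log2 0.95, 0.75 to 1.14), the largest increase of the set in the class. C3ar1 and Cfp were the 2 of 9 genes called higher, where 12.9% of the genes tested were. The median log2 ratio was 0.32 over the 9 genes and 0.11 over all genes tested. That 0.32 is the C4b ratio, whose interval includes 0, and the 9 genes hold the 3 similar C1q genes. No shift of the set is read from it. Within mature macrophage-like cells C3ar1 was 82.3 and 133 CPM (0.69, 0.35 to 1.02). In the Retnla- and Mrc1-led sub-cluster, where it was highest, it was 327 and 389 CPM (0.25, -0.02 to 0.52). In classical monocyte-like cells it was 38.7 and 39.8 CPM. With sub-clusters weighted as in KO the class ratio was 0.44, under the line. Of cells thinned to 1500 UMIs, C3ar1 was found in 19.1% of those with a C1q UMI and 3.89% of those without in KO, and in 25.7% and 7.46% in DKO. The C3a receptor transcript was thus found more often in cells with C1q in both libraries, but so, by share alone, were C4b, Cfb, Cfp and C5ar1. For C3ar1 and C5ar1 the intervals of the 2 kinds of cell do not overlap in either library. Those of C4b, Cfb and Cfp overlap in both. In DKO, Cfb was found in 13.8% (8.94 to 19.9%) against 11.9% (6.98 to 18.7%), and C4b in 12 and 3 cells. C5ar1 was found in 23.3% against 14.5% in KO and 24.6% against 5.22% in DKO. Only C3 differed in direction, with 26.6% against 24.6% in KO and 11.4% against 17.9% in DKO. The C3 intervals overlap in KO (23.5 to 29.9% against 21.5 to 27.9%) and in DKO (6.99 to 17.2% against 11.8 to 25.5%), so no direction is read from them.

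The 250 bases before the RefSeq C3ar1 start, chr6:122856158-122856407 on the minus strand (GRCm38.p6), are shown as the promoter of the gene with the largest increase. Capitals mark the single match, TGCTGA read from the other strand. None of the letters searched for PU.1, C/EBP, STAT (TTCNNNGAA) or the interferon-response element ISRE occur in this window.
C3ar1: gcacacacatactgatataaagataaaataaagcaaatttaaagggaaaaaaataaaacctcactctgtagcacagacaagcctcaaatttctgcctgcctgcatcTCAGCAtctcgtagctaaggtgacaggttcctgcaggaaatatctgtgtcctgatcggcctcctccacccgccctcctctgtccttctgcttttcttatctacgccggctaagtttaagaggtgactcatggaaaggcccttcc
Of the 9 genes, 6 had a window in the table used (C1qb, C1qc, C3, Cfp, C3ar1 and C5ar1). Genes closest to C3ar1 in profile were Ccl2 (r = 0.96), Rab3il1 (r = 0.95) and Tbxas1 (r = 0.92), and the first 2 were also the closest to C4b (r = 0.88 and 0.87), before Atp6v1b2.

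C5ar1 differed little in the class as a whole, at 137 CPM in KO and 141 in DKO (log2 0.04, -0.16 to 0.24), and its direction changed under 6 of 13 alternatives. It was highest in the Retnla- and Mrc1-led sub-cluster at 345 and 301 CPM (-0.20, -0.49 to 0.09). Mature macrophage-like cells had 120 and 90.2 CPM (-0.40, -0.80 to -0.04), and classical monocyte-like cells 103 and 66.3 CPM (-0.61, -1.24 to -0.08). With sub-clusters weighted as in KO the class ratio was -0.39. In neutrophil-like cells the log2 ratio was -0.02 (-0.45 to 0.39). Of the 3 genes with enough UMIs there (C3, Cfp and C5ar1), 0 were called, where 13.3% of the 1977 genes tested were higher and 22.7% lower. The 8 neutrophil markers summed to 72.0 and 62.4 CPM in monocyte/macrophage-like cells, with 7 and 6 of 8 detected and Ly6g at 0 in both, against 85139 and 125616 CPM in neutrophil-like cells. Genes closest to C5ar1 in profile were Clec4e, Sgms2 and Fcgr4 (r of 0.94 to 0.95).

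**Figure D4:**
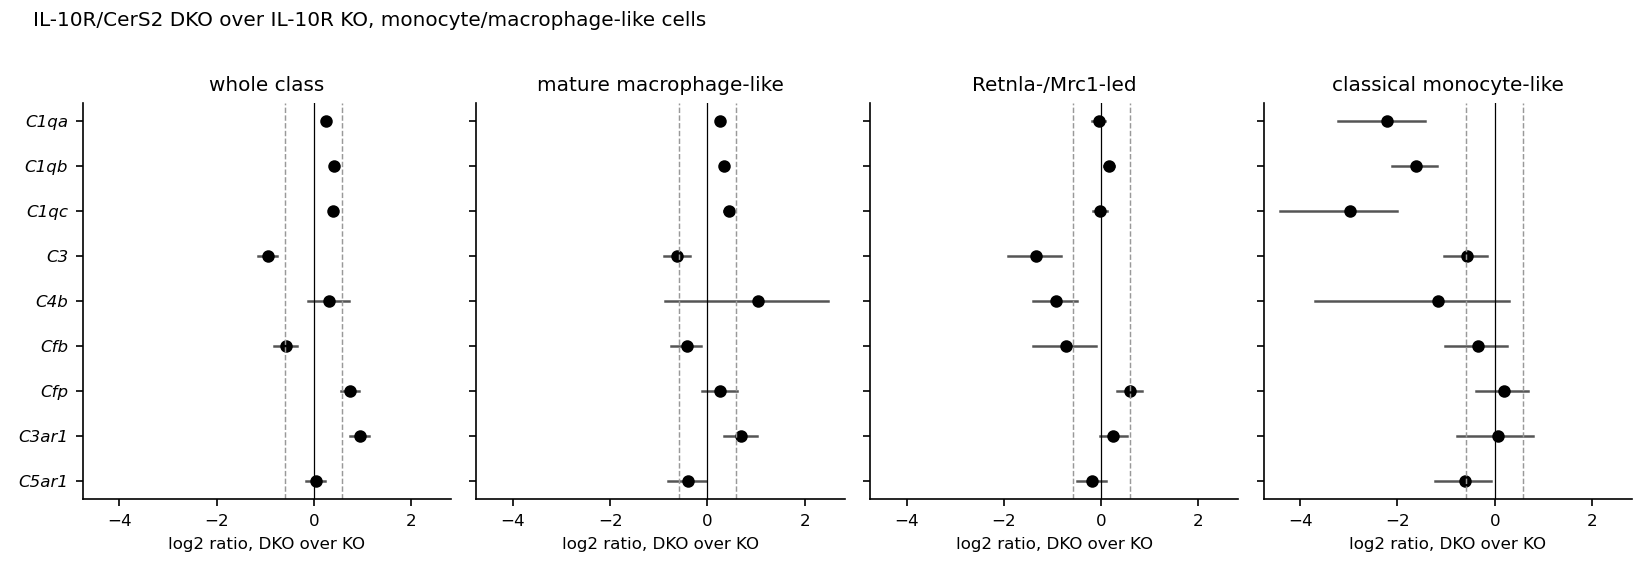
Log2 ratio of DKO over KO (horizontal axis) for each complement gene in all monocyte/macrophage-like cells and in 3 of their sub-clusters; points are ratios, bars are 95% counting intervals and dashed lines mark 1.5-fold. C3 and Cfb lie left of 0 in all 4 panels, and the C1q genes lie right of 0 in mature macrophage-like cells but between -2.98 and -1.62 in classical monocyte-like cells.

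The counts of genes called in each group are set beside the share of all genes called. The 3 C1q genes have closely similar profiles and do not count as separate results. In classical monocyte-like cells 5 of the 9 genes were at least 1.5-fold lower in DKO (C1qa, C1qb, C1qc, C4b and C5ar1, the C4b interval including 0) and 0 were higher, where 14.8% of 6963 genes were lower and 10.7% higher. In the Retnla- and Mrc1-led sub-cluster 3 were lower (C3, C4b and Cfb) and 1 higher (Cfp), with 10.2% and 12.1% of 6111 genes. In mature macrophage-like cells 1 was lower (C3) and 2 higher (C3ar1, and C4b from 20 UMIs with an interval that includes 0), with 10.6% and 12.6% of 8441 genes. In dendritic cell-like cells only 5 of the 9 genes reached 20 UMIs. Of these, C3 was lower and C1qa and Cfp were higher, with 16.2% and 11.9% of 5416 genes.

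Of 42 other complement genes, 41 were in the count table and 13 had at least 20 UMIs in monocyte/macrophage-like cells. The mannose-binding lectins Mbl1 and Mbl2, the factor D gene Cfd and the terminal component genes C8a, C8b and C8g had 0 UMIs in both libraries. Hc, which encodes C5, had 0 UMIs in KO and 1 in DKO. C5, the source of C5a, was thus all but undetected in these cells, while C5ar1 was measured.

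Among the 13, 2 were higher in DKO, 2 were lower and 9 stayed within 1.5-fold. Of the 9768 genes tested in the class, 12.9% were higher and 8.87% lower, so these counts are near the share of all genes. Cd93, a surface glycoprotein of myeloid cells once described as a C1q receptor, was 76.9 CPM in KO and 149 CPM in DKO (log2 0.96, 0.74 to 1.16). Fcna, which encodes the lectin pathway protein ficolin A, had 11 and 16 UMIs. C1ra, a classical pathway protease, had 61 and 6 UMIs, and C6, a terminal component, 33 and 4, both with intervals that include 0. Cr1l, a membrane regulator, was 27.2 and 36 CPM with an interval that includes 0.

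The integrin genes of complement receptors 3 and 4 encode antigens of the sort. Itgam (CD11b) was 134 and 150 CPM, Itgax (CD11c) 118 and 95.5 CPM (-0.30, -0.55 to -0.07), and their shared partner Itgb2 123 and 115 CPM. Calr, whose product binds C1q at the cell surface, was 489 and 554 CPM, and its partner Lrp1 71.9 and 77.6 CPM. Cd55, which breaks up convertases on the cell's own surface, was highest in B cell-like cells at 134 CPM for KO and 138 CPM for DKO, with 2 and 0 UMIs in monocyte/macrophage-like cells.

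Stromal markers summed to 0.913 CPM in KO and 1.12 CPM in DKO monocyte/macrophage-like cells (5 and 2 of 6 detected, Pdgfra at 0 in both). Epithelial markers summed to 9.35 and 1.69 CPM (6 and 2 of 6 detected, Epcam, Krt19, Lgals4 and Phgr1 at 0 in DKO). Both cell types can make C3 and C4b, and the sort on CD45 is a gate meant to remove them. A cluster of 34 KO and 8 DKO cells still had epithelial leading genes. Without the cell filter, 128 KO and 11 DKO barcodes were named epithelial cell-like. The part of stromal and epithelial cells in the C3 and C4b levels was not tested.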

How the data were processed

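Sorted colon cells from 1 IL-10R KO and 1 IL-10R/CerS2 DKO chimera library were analysed from the deposited 10x matrices of raw UMI counts per gene and cell. Per the labels and the study's methods, the authors made these counts with 3′ v3.1 chemistry and Cell Ranger 6.0.1 on mm10; Seurat 4.3.0 is also named in the submitters' processing notes. Per the study's methods, cells with under 300 or over 5000 genes or over 10% mitochondrial counts were left out, and the same filter was applied here. The KO library held 12549471 UMIs and the DKO library 3414944.

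Here, log-normalised counts (scale 10000), 2000 variable genes without the complement genes, 30 principal components, 20 neighbours and a resolution of 0.3 gave the clusters (Seurat 5.3.0, R 4.3.3). A cluster was named from at least 3 detected markers. Doublets were scored with Scrublet in scanpy 1.11.5, which called 6 and 1 cells, too few to rely on, so none were removed and leaving out the highest 5% of scores was an alternative. UMIs were summed per class and library. CPM intervals are exact Poisson, ratio intervals exact conditional, share intervals Clopper-Pearson, all at 95%; PCR and sampling of cells are not covered. Log2 ratios add 0.5 counts. A call needs a 1.5-fold ratio and 20 UMIs over both libraries, and profiles of under 20 cells were not compared. The floor for 0 is 3 counts. Shares were compared at 1500 UMIs per cell, leaving out 150 KO and 41 DKO monocyte/macrophage-like cells below it. No p-value was computed. The ratio step was checked on simulated Poisson counts with planted changes. These hold no variation between cells or libraries, so they check the arithmetic only and not the calls made here. Coordinates are from GENCODE M21.

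The named genes are all 9 members, other complement genes with at least 100 UMIs in monocyte/macrophage-like cells or in another class that leads them, and the 3 genes most correlated with each member among genes with at least 200 UMIs; Fcna, C1ra, C6 and those at or near 0 UMIs were named after their values were seen, and 1 gene that meets the rule is not reported here. The members and lists were chosen with earlier results of these data known. Alternatives comprised edgeR 4.0.16 TMM and DESeq2 1.42.0 size factors, other cell filters, resolution 0.8, marker gating, doublet removal, 1 added count, equal weight per cell, sub-cluster weights and leaving out single cells. The sub-cluster weights covered only sub-clusters with at least 20 cells in both libraries, so inflammatory macrophage-like cells were left out of both. Leaving out 2 sub-clusters and the alternatives for classical monocyte-like cells were chosen after seeing the data.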

Additional observations from a re-analysis of the deposited data

Results flagged for a closer look

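The C1q genes differed between DKO and KO in opposite directions in different cells, with counting intervals that exclude 0 on both sides. None of these differences between cell groups was tested, since each genotype is 1 library. The log2 ratio of DKO over KO for C1qa was 0.26 in mature macrophage-like cells and 1.16 in dendritic cell-like cells, against -2.21 in classical monocyte-like cells. For C1qb it was 0.15 in the Retnla- and Mrc1-led sub-cluster and 0.34 in mature macrophage-like cells, against -1.62 in classical monocyte-like cells. For C1qc it was 0.44 in mature macrophage-like cells, against -2.98 in classical monocyte-like cells. The classical monocyte-like values rest on 12, 43 and 7 UMIs in DKO, and the dendritic cell-like value on 155 UMIs of which 83 were in 1 cell.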

How the results depend on the processing

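The count of 6 genes led by monocyte/macrophage-like cells ranged from 4 (resolution 0.8 and complement genes kept in the clustering) to 7 (marker gate) over the alternatives run for it. The count of genes at least 1.5-fold higher in DKO in that class was 2 under each alternative but sub-clusters weighted as in KO, where it was 0. The count lower in DKO rose from 1 to 2 under the marker gate per cell, TMM scaling, DESeq2 size factors, sub-clusters weighted as in KO, the top cell left out, equal weight per cell, and without the inflammatory sub-cluster. TMM moved every log2 ratio by -0.13 and DESeq2 by the same to 2 decimals. Over the 13 alternatives, C3 ranged from -1.07 to -0.68, Cfb from -0.71 to -0.42, Cfp from 0.36 to 0.83, C3ar1 from 0.44 to 0.97, C1qa from 0.08 to 0.30, C1qb from 0.24 to 0.43 and C1qc from 0.23 to 0.42, each in 1 direction. C4b ranged from -0.78 to 0.54 and C5ar1 from -0.39 to 0.06, and both changed direction. The count of 5 lower genes in classical monocyte-like cells was 4 with the complement genes kept in the clustering and 6 with the top cell left out. No paired analysis was possible because each genotype has 1 library. Depth limits the DKO library most: C4b had 62 and Cfb 170 UMIs in its monocyte/macrophage-like cells.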
